A study of Mus musculus with 12 samples.

Results

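Whole-cell RNA of mouse embryonic stem cells was profiled in 6 libraries, 3 from cells in which the labelling enzyme was targeted to the cytosol and 3 from cells in which it was targeted to the endoplasmic reticulum (ER). These are the 6 of the 12 libraries in the series whose labels give whole-cell RNA, and every gene was considered. All 6 came from the E14Tg2a.4 line grown with 15% serum and 1000 U/mL leukemia inhibitory factor (LIF), with ribosomal protein Rpl31 fused to FLAG, a TEV protease site and an AviTag, the peptide that a biotin ligase modifies. Both groups were transfected with plasmids for an N-terminal and a C-terminal fragment of the ALIBi biotinylation system, so the site to which the fragments were sent is what separates them. No untransfected or untargeted group was analysed here. Neither the share of cells that took up the plasmids nor whether the tagged line is 1 clone is stated in the labels. The whole-cell RNA was lysate set aside before the ribosomes were purified, and it was made into libraries from poly(A) RNA. The other 6 libraries, ribosome-bound RNA under the same targetings, serve here only for contrast.

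Embryonic stem cells are held in self-renewal by a circuit of transcription factors around Pou5f1 (Oct4), Sox2 and Nanog, which LIF sustains in culture through Stat3. When proteins misfold in the ER, the sensors Ern1, Atf6 and Eif2ak3 start the unfolded protein response, which raises transcripts for ER chaperones and, through Atf4, for amino acid supply. Atf6 and the factor NF-Y bind a paired promoter element in many of the chaperone genes. The comparison asks whether placing the enzyme at the ER went along with a change in the mRNA supply from which ribosomes draw.

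The promoters below show these control elements in genes whose levels are described further on. Windows of 250 bases before each annotated start were read from RefSeq on GRCm38.p6. The ER stress response element was searched on both strands as CCAAT, any 9 bases and CCACG, a motif that overlaps no other one searched. It was found in 0.113% of the 32851 windows and in 0.13% of the 27025 genes that have one. Of the 25 genes in a list of ER chaperones and unfolded protein response targets, 22 had a window, and 9 of these held the element: Calr, Canx, Creld2, Derl3, Dnajc3, Hsp90b1, Hspa5, Pdia6 and Syvn1. A match is a description of the letters and does not show that a factor binds there. Capitals mark the element in 5 of these genes, read along the gene's own strand. In Calr, Derl3 and the second Hsp90b1 line it lies in the opposite orientation.
Hspa5, chr2:34772015-34772053, + strand: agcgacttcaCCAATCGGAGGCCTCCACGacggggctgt
Hsp90b1, chr10:86705628-86705666, - strand: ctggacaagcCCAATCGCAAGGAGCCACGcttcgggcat
Hsp90b1, chr10:86705523-86705561, - strand: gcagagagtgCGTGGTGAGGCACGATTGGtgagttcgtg
Calr, chr8:84847065-84847103, - strand: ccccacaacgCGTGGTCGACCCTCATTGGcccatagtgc
Syvn1, chr19:6046522-6046560, + strand: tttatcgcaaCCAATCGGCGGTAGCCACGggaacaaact
Derl3, chr10:75893232-75893270, + strand: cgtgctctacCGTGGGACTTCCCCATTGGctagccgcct

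The composite site at which Oct and Sox factors sit side by side was searched on both strands as TTTGCAT, any 1 base and ACAATG. It occurred in 0.006% of windows, all of them of Nanog, the 1 gene of 27025 that held it. Of the 30 pluripotency regulators 20 had a window. The line gives the 95 bases that end at the upstream one of 2 annotated Nanog starts, with the composite site in capitals.
Nanog, chr6:122707394-122707488, + strand: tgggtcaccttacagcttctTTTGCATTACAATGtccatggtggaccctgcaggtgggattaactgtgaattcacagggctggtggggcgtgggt

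The core to which interferon-activated factors bind was searched on both strands as GAAA, any 2 bases and GAAA. It occurred in 2.98% of windows and in 3.46% of the 27025 genes with a window. Of the 23 interferon-stimulated genes with a window 12 held it. Isg15 and Bst2 are shown, with overlapping copies of the core in capitals, because a nearly silent and an abundant transcript carry the same element.
Isg15, chr4:156200819-156200916, - strand: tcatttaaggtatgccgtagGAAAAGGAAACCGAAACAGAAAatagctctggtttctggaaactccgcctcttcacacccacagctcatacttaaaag
Bst2, chr8:71537473-71537622, - strand: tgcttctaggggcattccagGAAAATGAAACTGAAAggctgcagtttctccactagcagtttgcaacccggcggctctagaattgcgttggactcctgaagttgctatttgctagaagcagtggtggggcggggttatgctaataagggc

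The 6 libraries held 21.1 to 26.8 M reads counted in genes. Mitochondrially encoded mRNAs took 1.77% to 1.85% of these and cytosolic ribosomal protein mRNAs 12.01% to 12.77%. For 15 such shares the adjusted p was 0.8 each in a two-sided exact permutation test between the groups, which cannot go below 0.1 with 3 libraries against 3. Replicates of a group had correlations of log2 CPM (read counts per M reads of a library) of 0.997 to 0.998, taken over genes, which are not independent. No pair was a repeat of 1 library, since the mean chi-square per gene was 2.04 to 8.41 where counting error alone gives about 1. Cytosol replicate 2 stood apart in a few transcripts. It had 0.0239% of its counts in small noncoding RNA genes against 0.0104% to 0.0119% in the other 5, and 0.988% in ENSMUSG00000119584, an identifier with no name here, against 0.287% to 0.397%. Mir6236, a gene of the small noncoding class described below, had 4284 counts there against 1228 to 1678 in the other 5. The class share and that gene are not separate observations. For the named genes that were high in that library alone, the log2 ratio is given with and without it. Replicates are labelled biological, but no label ties them to cultures or days, and p-values rest on the spread among libraries, which may be technical.

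No gene was called different between ER and cytosol targeting in whole-cell RNA. Of 16221 genes tested, 0 passed an adjusted p of 0.05 (0%), and the smallest adjusted p was 0.998 by the quasi-likelihood test of edgeR after Benjamini-Hochberg adjustment. Without adjustment 634 genes (3.91%) had a p under 0.05, 356 of them higher and 278 lower under ER targeting. DESeq2 also called 0 genes, with 342 under 0.05 before adjustment. The median log2 ratio of ER over cytosol was 0.0075, and the middle 90% of genes lay between -0.31 and 0.26.

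The precision set by 3 libraries a group bounds what could have been missed. The 95% interval of the ratio lay within 1.2-fold in either direction for 9316 genes (57.4%), within 1.5-fold for 12608 (77.7%) and within 2-fold for 14690 (90.6%). Abundant transcripts were bounded most tightly. Among the 2109 genes of at least 100 CPM, 99.7% lay within 1.2-fold, with a median standard error (SE) of 0.037 on the log2 scale. Among the 2481 genes under 1 CPM the median SE was 0.39, and 0.242% could be bounded within 1.5-fold, so a change of that size was not detectable there at this depth. All 87 genes with a ratio beyond 2-fold had a mean of at most 2.94 CPM. In 1517 genes (9.35%) the 3 values of one group all lay above those of the other.

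**Figure D1:**
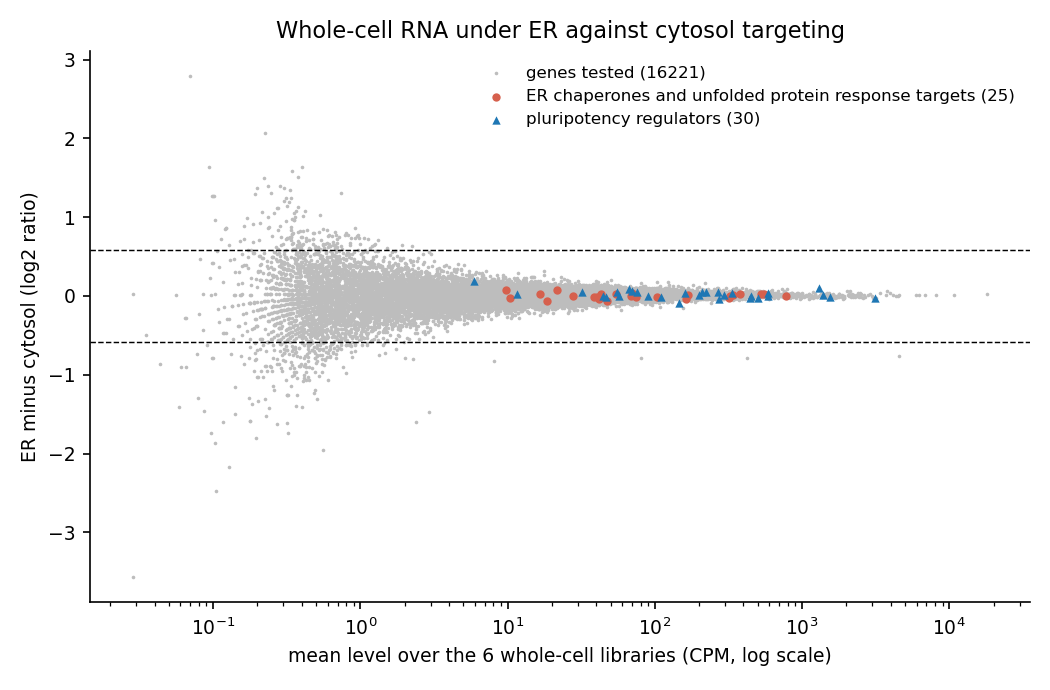
Each point is a gene, with its mean level over the 6 whole-cell libraries (CPM, log scale) on the horizontal axis and the log2 ratio of ER over cytosol targeting on the vertical axis; dashed lines mark 1.5-fold. The scatter narrows as the level rises, and all 25 ER chaperones and response targets and all 30 pluripotency regulators lie between the lines.

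The transcript of the tagged protein was tightly bounded. Rpl31 stood at 1994, 1922 and 1975 TPM (transcripts per M, a level scaled by gene length) in cytosol replicates 1 to 3, and at 1916, 1963 and 1897 TPM in ER replicates 1 to 3. The groups overlapped, and the log2 ratio was -0.03 with a 95% interval of -0.09 to 0.04. The counts do not separate tagged from untagged copies.

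Transcripts for ER chaperones, folding enzymes and ER-associated degradation showed no difference that passed the test, and their ratios were tightly bounded. Of the 25 genes in that list 0 were called and 0 had an unadjusted p under 0.05. All 25 had an interval within 1.2-fold. Over all genes this share was 57.4%, but it rose with level, to 92.5% at 10 to 100 CPM and 99.7% from 100 CPM. The list's median log2 ratio was 0.0040 beside 0.0075 over all genes. Hsp90b1, the ER member of the Hsp90 family and the most abundant of the list, stood at 524, 561 and 563 TPM in the cytosol libraries and 547, 552 and 551 TPM in the ER libraries. The ER values lay inside the cytosol range, and the log2 ratio was 0.0050 with an interval of -0.07 to 0.08. Hspa5 (BiP), the Hsp70 of the ER lumen, stood at 214, 234 and 233 TPM against 231, 224 and 233 TPM, a log2 ratio of 0.017 (-0.06 to 0.09). Syvn1, the ubiquitin ligase of ER-associated degradation and the least abundant member, stood at 12.4, 12.8 and 12.1 TPM against 12.7, 13.6 and 13.0 TPM. In TPM 1 ER value lay inside the cytosol range, in CPM none did, and the interval of the log2 ratio was -0.04 to 0.21. The 9 genes with the ER stress response element in their promoter had log2 ratios from -0.07 to 0.08, and the 13 without it had ratios from -0.07 to 0.03.

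The arm of the response that runs through Atf4 had no called gene either. In 25 integrated stress response targets, of which 24 were tested, 0 were called and 0 had an unadjusted p under 0.05, and 23 lay within 1.5-fold. Ddit4, an inhibitor of the growth kinase mTORC1 and the most abundant of them, stood at 702, 583 and 645 TPM in the cytosol libraries and 664, 679 and 654 TPM in the ER libraries, all 3 inside the cytosol range. The folate enzyme Aldh1l2 was the least abundant member tested, at 1.32, 1.17 and 1.26 TPM against 0.954, 1.21 and 1.04 TPM. Its interval of -0.56 to 0.10 is wide. The cystine transporter Slc7a11, named after its values were seen, had 2 reads over all 6 libraries.

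Sterol and fatty acid genes, whose transcription factors (the SREBPs) are released from the ER membrane, also had no called gene. Of 32 genes 0 were called and 0 had an unadjusted p under 0.05, the median log2 ratio was -0.0080, and all 32 lay within 1.5-fold. The desaturase Scd2, the most abundant, ran from 471 to 501 TPM in the cytosol libraries and from 481 to 499 TPM in the ER libraries. The cholesterol enzyme Hsd17b7, the least abundant, stood at 4.29, 5.17 and 4.14 TPM against 4.94, 5.18 and 5.29 TPM. Its log2 ratio of 0.18 had an interval of -0.03 to 0.40.

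Heat shock proteins, the chaperones of the cytosol and mitochondria, showed 0 of 14 genes called and a median log2 ratio of -0.013. Hsp90aa1 stood at 2685, 2899 and 2873 TPM against 2889, 2865 and 2922 TPM. Cryab, a small heat shock protein present at 1.77 to 3.34 TPM, could be bounded only between -0.17 and 0.78. Among 16 oxidative stress and metal response genes 0 of the 15 tested were called, and ferritin light chain Ftl1 stood at 4290.1, 3964 and 4210.0 TPM against 4039, 4041 and 4118 TPM. Among 21 p53 targets 0 were called, and 2 had an unadjusted p under 0.05 by edgeR, beside 3.91% of all genes. The pore-forming apoptosis gene Bax stood at 357, 335 and 327 TPM against 346, 338 and 346 TPM.

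In 2 of the 34 lists the summed level did not overlap between the groups, no larger a share than the 9.35% of single genes without overlap. For immediate early genes, the first transcripts to answer growth and stress signals, the sum was 1678, 1601 and 1697 TPM in the cytosol libraries and 1709, 1715 and 1772 TPM in the ER libraries. Of 18 tested genes 0 were called, and 4 (Btg2, Fos, Ier3 and Mcl1) had an unadjusted p under 0.05 by edgeR, against 3.91% of all genes. The list's median log2 ratio was 0.07. Mcl1, an anti-apoptotic relative of the Bcl2 protein, was the most abundant member. It stood at 644, 618 and 666 TPM against 685, 681 and 683 TPM, and without it the sums overlapped, at 983 to 1034 TPM against 1024 to 1089 TPM.

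For hypoxia response genes the sum was 3754, 3598 and 3756 TPM in the cytosol libraries and 3829, 3934 and 3782 TPM in the ER libraries. Of 18 genes 0 were called, 5 (Adm, Ero1l, Hk2, Kdm3a and Ndrg1) had an unadjusted p under 0.05 by edgeR, beside 3.91% of all genes, and the median log2 ratio was 0.05. Without the glucose transporter Slc2a3, the most abundant member, the sums overlapped, at 2790 to 2950 TPM against 2932 to 3065 TPM. Hk2, the hexokinase that opens glycolysis, stood at 82.4, 81.4 and 82.5 TPM against 90.0, 92.2 and 88.7 TPM. The groups did not overlap, yet its adjusted p was 0.998, and the log2 ratio of 0.14 had an interval of 0.05 to 0.23. Hk2 and the genes of unadjusted p under 0.05 were named after their values were seen.

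Among targets of the signals that hold or end the stem cell state, no gene was called. LIF and STAT3 targets had 0 of 11 tested genes called, and their most abundant member, the kinase gene Pim3, stood at 232, 216 and 221 TPM against 227, 216 and 235 TPM. FGF and ERK targets had 0 of 13 called, and the growth factor Fgf4 stood at 292, 295 and 295 TPM against 302, 305 and 292 TPM. Wnt targets had 0 of 9 tested called, and the transcription factor gene Tcf7 stood at 146, 143 and 133 TPM against 142, 137 and 138 TPM. Nodal and BMP targets had 0 of 11 called. In SRF and YAP targets, genes of the contractile cytoskeleton and of cell spreading, 0 of 15 tested were called. Their most abundant member, the actin gene Actg1, stood at 1247, 1264 and 1226 TPM against 1289, 1293 and 1283 TPM. The 3 ER values exceeded the 3 cytosol values, and the log2 ratio of 0.05 had an interval of -0.01 to 0.12. An unadjusted p under 0.05 by edgeR was found for 2 LIF and STAT3, 1 FGF and ERK and 2 SRF and YAP targets. Wnt targets had 0, as did Nodal and BMP targets, and the share over all genes was 3.91%. The 2 LIF and STAT3 targets were Socs3 and Stat3, named after their values were seen. The median log2 ratio was 0.05 for LIF and STAT3, -0.02 for FGF and ERK and 0.05 for Wnt targets. It was -0.01 for Nodal and BMP and 0.03 for SRF and YAP targets. In the same order 10 of 11, 5 of 13, 6 of 9, 5 of 11 and 9 of 15 tested ratios were positive.

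Over the 586 distinct list genes that were tested, 26 (4.44%) had an unadjusted p under 0.05 by edgeR, near the 3.91% of all genes. An interval within 1.2-fold was held by 468 (79.9%), beside 57.4% of all genes, a share that rises with level. The list medians of the 27 lists with at least 10 tested genes ran from -0.08 (mesoderm and primitive streak markers) to 0.07 (immediate early genes).

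The genes of smallest unadjusted p were named after their values were seen. Rpph1, the RNA of ribonuclease P, had the smallest, 0.000192 by edgeR, at 2.81, 8.69 and 1.49 CPM in the cytosol libraries against 1.57, 1.57 and 1.52 CPM in the ER libraries. The high value was that of cytosol replicate 2, and without it the log2 ratio went from -1.47 (SE 0.35) to -0.49 (SE 0.30). Among genes of at least 5 CPM the smallest p was that of Tor1a, an ATPase of the ER lumen and nuclear envelope. It stood at 27.8, 27.8 and 28.4 CPM against 24.4, 25.4 and 23.6 CPM. The groups did not overlap, and the log2 ratio was -0.20 (SE 0.054), unadjusted p 0.000899 and adjusted p 0.998 by edgeR. The chromatin protein gene Pwwp2a followed, at 43.2, 44.9 and 44.5 CPM against 48.9, 52.7 and 48.2 CPM, a log2 ratio of 0.18 (SE 0.0502).

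Ribosome-bound RNA of the same targetings did differ, which gives the scale against which the whole-cell ratios can be read. By the same edgeR test 4715 genes (29.1%) were higher and 3983 (24.6%) lower on ribosomes labelled at the ER. The ratio of ER over cytosol itself differed between the fractions for 7033 genes (43.4%), being larger in ribosome-bound RNA for 4023 (24.8%). For the 2940 genes more than 2-fold higher on ER-labelled ribosomes, the median log2 ratio was 1.63 in ribosome-bound RNA and 0.0026 in whole-cell RNA. The middle 90% of their whole-cell ratios lay between -0.34 and 0.26, close to the span over all genes. Between the fractions 2799 of these 2940 differed, but the genes had been picked by the ribosome-bound ratio that enters that difference.

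On ER-labelled ribosomes 24 of the 25 ER chaperone genes were higher, beside 29.1% of all genes, and Sec61b was lower. The list's median log2 ratio was 2.14 there beside 0.0040 in whole-cell RNA. For Hsp90b1 the ribosome-bound level went from 552, 566 and 603 CPM under cytosol targeting to 2620.3, 2615 and 2627 CPM under ER targeting. The difference between its 2 ratios was 2.19 (SE 0.0495, adjusted p 5.14e-29 by edgeR). Of the 32 SREBP genes 22 were higher there, beside 29.1% of all genes, and 9 lower, a count near the 24.6% over all genes. For Scd2 the difference between the ratios was 1.66 (SE 0.0464). Fibronectin, Fn1, a secreted matrix protein, stood at 126, 135 and 126 TPM against 132, 138 and 133 TPM in whole-cell RNA, with a ribosome-bound log2 ratio of 1.98 and a whole-cell one of 0.07. In the heat shock list, whose products are made in the cytosol, 0 of 14 were higher there and 11 were lower. Over all genes 29.1% were higher and 24.6% lower.

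**Figure D2:**
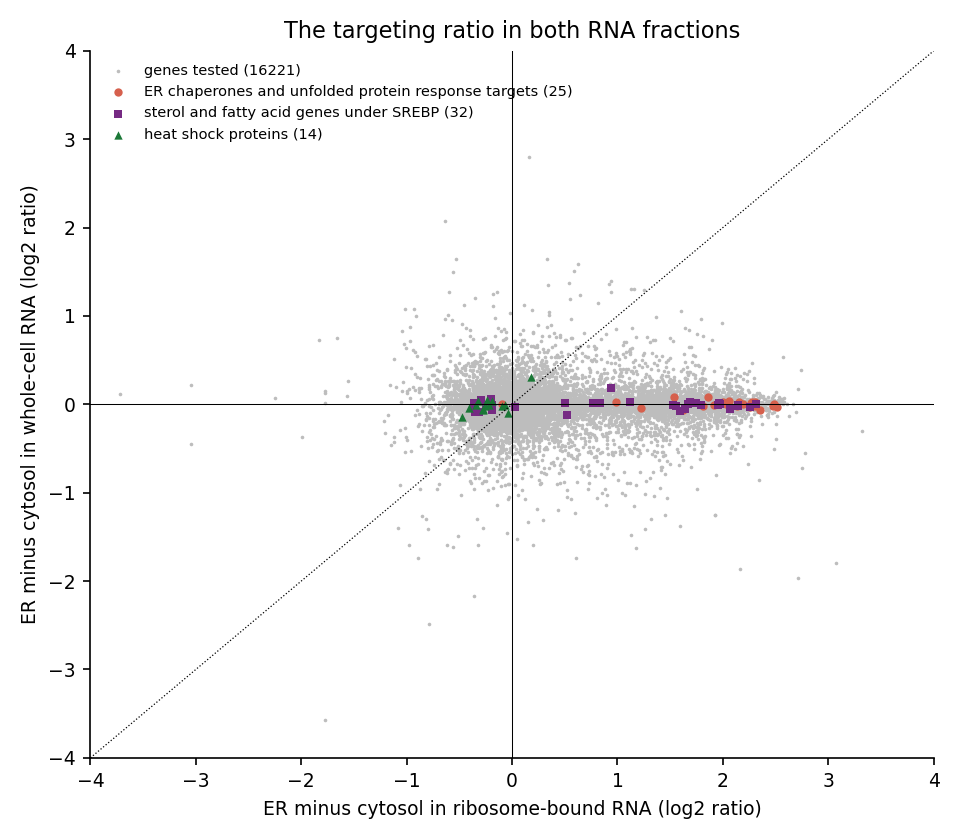
Each point is a gene, with the log2 ratio of ER over cytosol targeting in ribosome-bound RNA on the horizontal axis and in whole-cell RNA on the vertical axis, cropped at 4 in each direction (1 gene lies outside); the dotted line marks equal ratios. Of the 25 ER chaperones and response targets 24 lie to the right along the line of no whole-cell difference, as do 22 of the 32 SREBP genes, and heat shock genes lie near the centre, mostly to its left.

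The transcriptome shared by the 6 libraries carried the markers of pluripotent cells, the type the labels give. With a threshold of 1 CPM in every library, 13191 genes were detected, 12328 of them protein coding out of 21928 listed, with 388 long noncoding genes and 414 pseudogenes. At 0.1 CPM the count was 16441, and at 10 CPM it was 9192. Another 28303 of 55416 identifiers had 0 counts in all 6 libraries, which allows up to 0.0207 reads per M over the 144.8 M reads, for counting error only. The 10 most abundant genes of each library took 7.04% to 7.63% of its counts, the top 100 took 24.2% to 24.9% and the top 1000 took 55.0% to 55.8%.

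Translation genes headed the list of protein-coding genes by length-scaled level. Eef1a1, which delivers aminoacyl-tRNA to the ribosome, was first at 20655 ± 445 TPM (SD, n = 6). The cytochrome oxidase gene mt-Co1 came next at 19820 ± 429 TPM. Dppa5a, an RNA-binding protein gene typical of pluripotent cells, followed at 14499 ± 273 TPM, and the ribosomal protein gene Rplp1 at 14264 ± 393 TPM. The rest of the first 15 included the ribosomal protein genes Rps15, Rpl36, Rps2, Rpl8, Rpl4, Rpl23a and Rps4x, the elongation factor gene Eef2, the glycolytic Aldoa and the mitochondrial mt-Nd1, at 4740 to 7547 TPM. The first pair and the next pair in this order overlapped in their 6 values. The largest log2 ratio of ER over cytosol in size among the 15 was -0.04, for Rpl36.

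All 30 pluripotency regulators were detected at 1 CPM in every library, 17 of them at 100 TPM or more. Pou5f1 stood at 2017, 1976 and 1923 TPM in the cytosol libraries and 1949, 1943 and 1943 TPM in the ER libraries, rank 72 among protein-coding genes. Its partner Sox2 stood at 804, 829 and 807 TPM against 812, 788 and 834 TPM. Nanog, whose promoter is printed above, stood at 623, 658 and 647 TPM against 626, 623 and 647 TPM. In each of these the groups overlapped, and the intervals of the log2 ratio were -0.08 to 0.05 for Pou5f1, -0.07 to 0.07 for Sox2 and -0.09 to 0.05 for Nanog. The naive-state marker Zfp42 (Rex1) averaged 684 ± 33.9 TPM (SD, n = 6), the orphan receptor Esrrb 276 ± 5.54 TPM and the LIF-responsive factor Klf4 209.8 ± 6.21 TPM. The order of these 6 was Pou5f1, Sox2, Zfp42, Nanog, Esrrb and Klf4. Zfp42 and Nanog are the only neighbours in it whose 6 values overlap. The DNA demethylase Tet1 was the lowest of the list at 1.09 ± 0.0987 TPM on the exon-union length used here. Of the 30 genes 0 were called, 2 (Tcl1 and Tdgf1) had an unadjusted p under 0.05 by edgeR, beside 3.91% of all genes, and the median log2 ratio was 0.016.

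**Figure D3:**
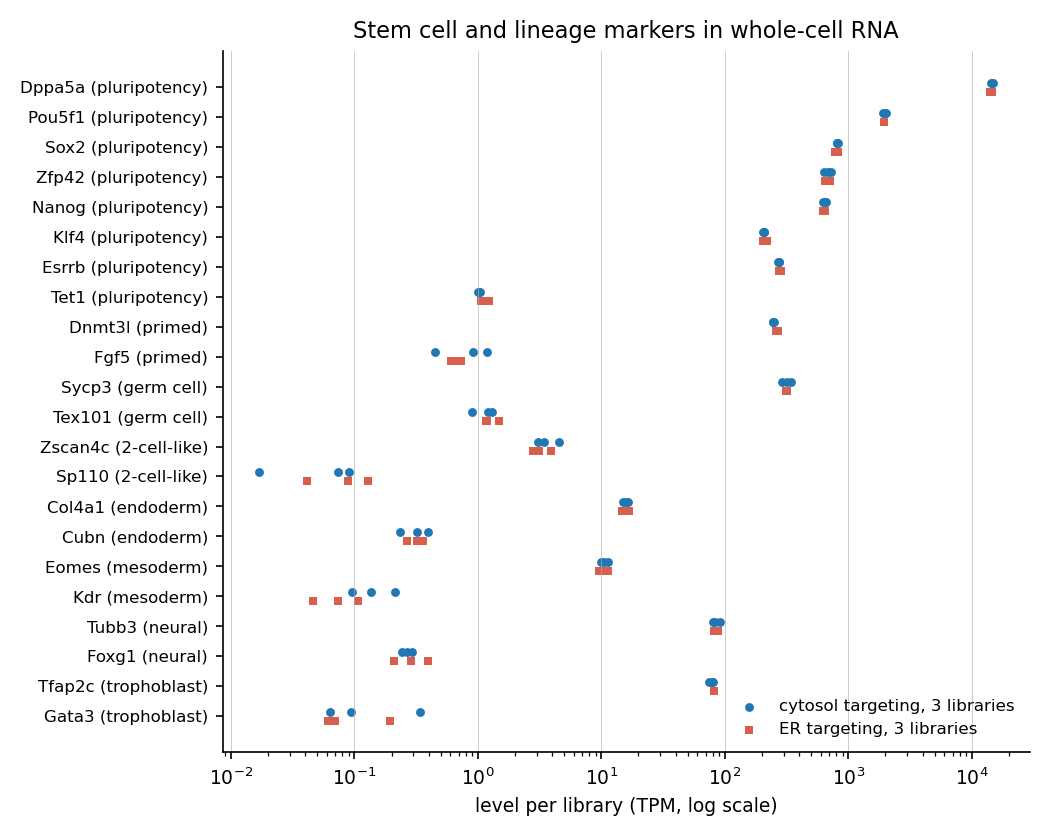
Length-scaled level (TPM, log scale) of 22 stem cell and lineage markers in each of the 6 whole-cell libraries, with circles for the 3 cytosol and squares for the 3 ER libraries. Pluripotency genes other than Tet1 lie above 200 TPM with the groups superimposed, and scarce markers such as Sp110 and Gata3 scatter widely in both groups.

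Markers of later states were uneven. Of 15 formative and primed epiblast genes, the DNA methylation cofactor Dnmt3l was highest at 256 ± 9.83 TPM (SD, n = 6), and Fgf5, the classic primed marker, was lowest at 0.763 ± 0.256 TPM. Dnmt3l stood at 247, 251 and 245 TPM against 260.5, 270.3 and 260.8 TPM, groups that did not overlap, with a log2 ratio of 0.10 and an adjusted p of 0.998 by edgeR. Markers of the rare 2-cell-like state were scarce: 0 of 19 reached 10 TPM, and Zscan4c, the highest, ran from 2.80 to 4.55 TPM. Reads of Zscan4 copies may be split between near-identical genes. Bulk RNA cannot tell fewer cells of a type from less RNA per cell.

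Markers of differentiated lineages were uneven, with median levels from 0.282 TPM (neural) to 12.5 TPM (trophoblast). Of 13 neural markers 7 had a mean under 1 TPM, with Tubb3, a tubulin of neurons, highest at 84.8 ± 4.34 TPM (SD, n = 6) and the neuroblast gene Dcx at 2 reads over the 6 libraries. Of 13 mesoderm and primitive streak markers 1 reached 10 TPM, Eomes at 10.5 ± 0.748 TPM, and the streak gene Evx1 had 5 reads. Of 16 endoderm markers 3 reached 10 TPM, led by the basement membrane collagen Col4a1 at 15.7 ± 0.905 TPM, while the fetal liver gene Afp had 1 read. Of 9 trophoblast markers 5 reached 10 TPM and 3 were under 1 TPM. The transcription factor gene Tfap2c was highest at 79.8 ± 2.80 TPM, and Elf5, which defines trophoblast stem cells, had 6 reads. Of 15 fibroblast markers Fn1 was highest at 132 ± 5.07 TPM, and the matrix gene Postn had 1 read. Dcx, Evx1, Afp, Elf5 and Postn were named after their values were seen. In the summed level of each of these 5 lists the groups overlapped. The sum ran from 93.9 to 106.8 TPM in the cytosol and 97.0 to 103.5 TPM in the ER libraries for neural markers, and from 203 to 209 TPM against 204 to 216 TPM for fibroblast markers.

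Germ cell genes were more abundant than those lineages. Sycp3, a component of the meiotic chromosome axis, averaged 318 ± 16.5 TPM (SD, n = 6), and 5 of 8 genes in the list reached 10 TPM. The germ cell surface gene Tex101 was the lowest, at 1.21 ± 0.196 TPM. The summed level was 438 to 499 TPM in the cytosol libraries and 464 to 471 TPM in the ER libraries.

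Interferon-stimulated genes were split. Ifitm2, a membrane protein that blocks virus entry, stood at 1115, 1081 and 1055 TPM against 1053, 1078 and 1045 TPM, and 4 of 30 genes had a mean of at least 100 TPM. These included Bst2, which tethers budding virus, at 313 ± 8.36 TPM (SD, n = 6). By contrast 17 of the 30 had a mean under 1 TPM, among them the ubiquitin-like Isg15 with 3 reads and Ifit1 with 1 read over the 6 libraries. Isg15 and Bst2 are the genes whose promoters are printed above with the interferon core, far apart in level. They were named after their values were seen. Of the 20 tested genes 0 were called, and the median log2 ratio was -0.05.

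**Figure D4:**
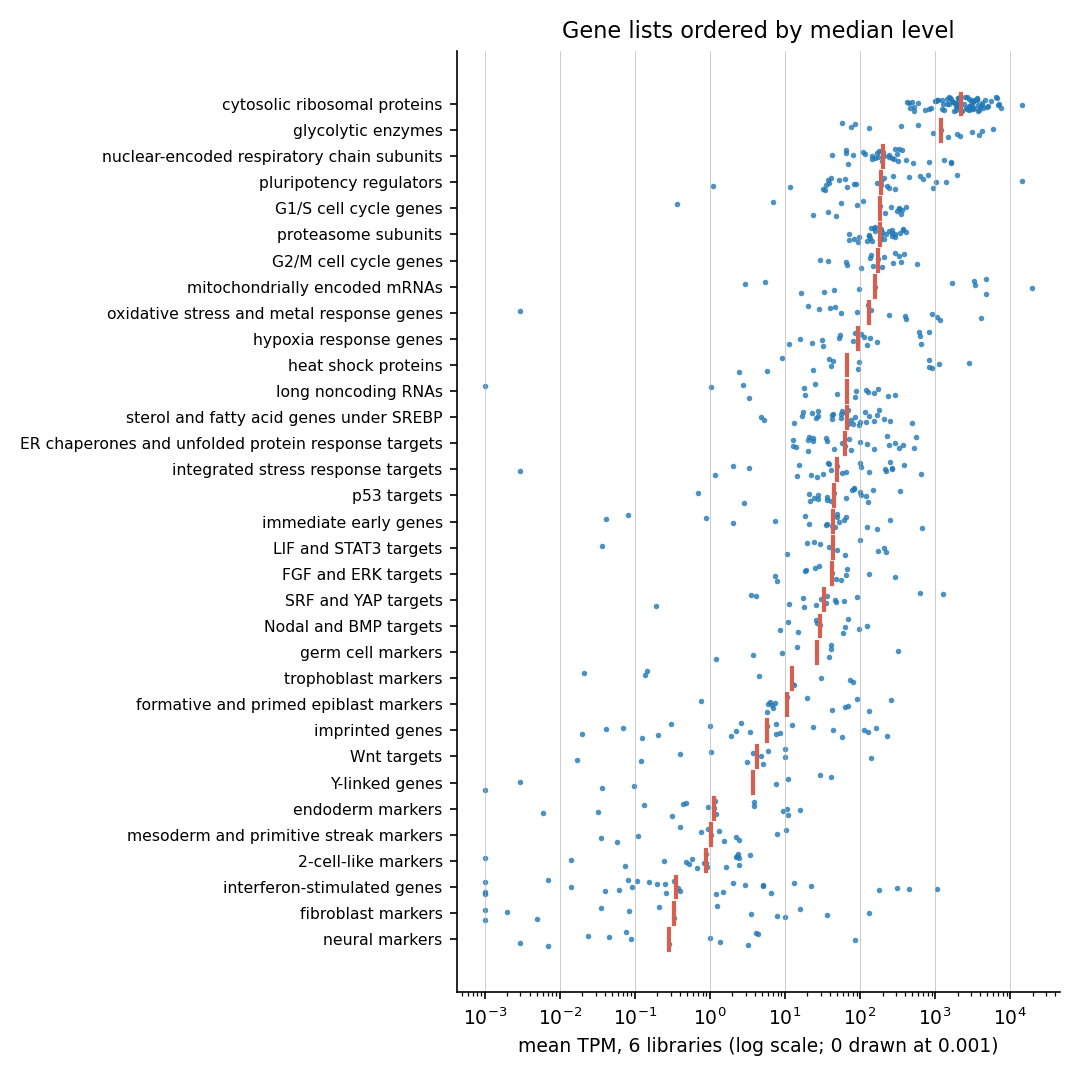
Each point is a gene of 1 of 33 lists, placed at its mean TPM over the 6 whole-cell libraries (log scale, 0 drawn at 0.001), and the bar marks the list's median. Cytosolic ribosomal proteins (median 2199 TPM) and glycolytic enzymes (1218 TPM) head the order, and interferon-stimulated genes, fibroblast markers and neural markers (0.282 to 0.358 TPM) close it.

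Genes of the core machinery had narrow intervals. All 78 cytosolic ribosomal protein genes lay within 1.2-fold between targetings, with log2 ratios from -0.05 to 0.05 and levels from 426 TPM (Rpl29) to 14264 TPM (Rplp1). All 31 proteasome subunits, all 32 nuclear-encoded respiratory chain subunits, all 15 glycolytic enzymes and all 17 G2/M cell cycle genes also lay within 1.2-fold. Cdc20, which activates the anaphase-promoting complex, led the G2/M list at 573 ± 10.7 TPM (SD, n = 6), and the replicative helicase gene Mcm3 led the G1/S list at 406 ± 11.1 TPM. The G1/S list had 15 of 17 genes within 1.2-fold. Its lowest member was the cyclin gene Ccnd2 at 0.365 ± 0.0844 TPM, with an interval of -0.44 to 0.61. Mitochondrially encoded mRNAs ranged widely among themselves, from mt-Nd3 at 5.40 ± 1.34 TPM, the lowest tested, to mt-Co1. These levels may depend on the strand setting and the handling of multimapped reads, neither of which is given.

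Sex-linked and noncoding transcripts were measured as well. Of 8 Y-linked genes 4 had a mean under 1 TPM, among them the histone demethylase Kdm5d with 2 reads over the 6 libraries, named after its values were seen. The highest, the translation factor gene Eif2s3y, stood at 38.5, 40.6 and 41.7 TPM against 40.5, 42.3 and 41.9 TPM, and Xist, which coats the inactive X chromosome in female cells, had 1 read over the 6 libraries. Among 16 long noncoding RNAs Epb41l4aos was highest at 294 ± 18.9 TPM (SD, n = 6). Among imprinted genes Phlda2 was highest at 226 ± 10.8 TPM, and 0 of 20 tested were called.

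The genes that varied most among the 6 libraries overlapped between the targetings. Of the 10 with the highest coefficient of variation at 20 CPM or more, the first 3 were high in cytosol replicate 2 alone. Mir6236 stood at 57.4, 182.4 and 66.2 CPM in the cytosol libraries and 52.4, 60.4 and 63.8 CPM in the ER libraries. Lars2, the mitochondrial leucyl-tRNA synthetase gene, stood at 333, 930.2 and 335 CPM against 289, 278 and 355 CPM. ENSMUSG00000119584 stood at 3343, 10068 and 3779 CPM against 3126, 2983 and 4052 CPM. These, with the antisense gene Gm15564, were the 4 genes of at least 5 CPM whose log2 ratio exceeded 0.5 in size, from -0.76 to -0.82. Without cytosol replicate 2 their ratios lay between -0.13 and -0.07. No other library had a gene more than 1.5 times above the next highest library, or as far below the next lowest, among 7583 genes of at least 20 CPM.

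The other 7 had coefficients of variation of 13.0% to 18.0%, led by Lefty2, with Lefty1 near their end. Lefty2 and Lefty1 encode inhibitors of Nodal and are its direct targets. Lefty2 stood at 55.2, 73.8 and 57.7 CPM in the cytosol libraries and 52.8, 44.3 and 67.2 CPM in the ER libraries. Lefty1 stood at 76.5, 82.3 and 77.2 CPM against 70.2, 59.7 and 88.4 CPM. Both genes were highest in cytosol replicate 2 and ER replicate 3 and lowest in ER replicate 2. Bcl3, a nuclear partner of NF-kappaB and a STAT3 target, was highest in ER replicate 2 at 43.0 CPM and ran from 29.1 to 36.8 CPM in the other 5. The nuclear RNA Malat1 was at 44.7 CPM in cytosol replicate 1 and at 62.1 to 69.8 CPM elsewhere. Aqp3, Tma7-ps and Chtf8 completed the 10. In a principal component analysis of the 6 libraries, the first component (30.7% of the variance) set ER replicate 2 at 8.3 against cytosol replicate 2 at -5.79 and ER replicate 3 at -3.58, so the groups overlapped on it. On components 2 and 3 the groups overlapped as well. Component 4 (16.3% of the variance) separated the groups, with cytosol libraries at -1.1, -2.83 and -4.3 and ER libraries at 3.1, 0.21 and 4.91. It was 1 of 5 components, and its separation of the groups was not tested.

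**Figure D5:**
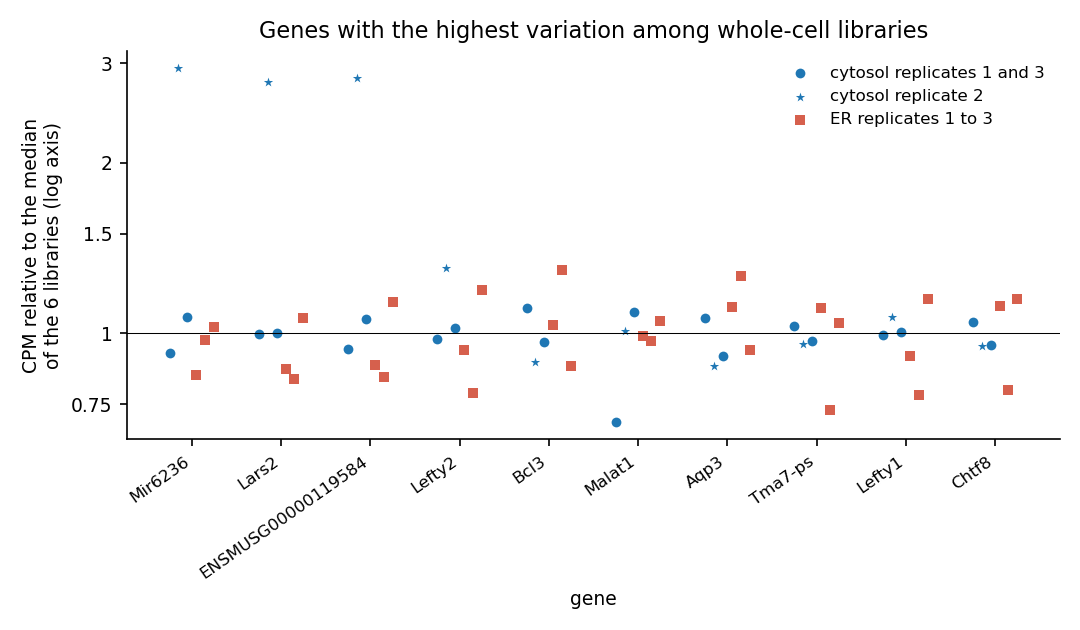
CPM of each library relative to the median of the 6 (log axis) for the 10 most variable genes of at least 20 CPM, with circles and a star for cytosol and squares for ER libraries. The star, cytosol replicate 2, stands 2.49 to 2.75 times above the next library for Mir6236, Lars2 and ENSMUSG00000119584. It departs less for the remaining 7 genes, being the highest of the 6 for Lefty2 and the lowest for Aqp3.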

How the data were processed

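RNA was measured in 12 libraries, 6 of them whole-cell RNA. Per the labels' protocols, 750 ng of RNA per sample was taken through poly(A) selection, a directional kit and 9 cycles of PCR, and paired 150-base reads were sequenced. The deposited values are read counts per Ensembl gene, not normalized. Per the submitters' processing notes, STAR 2.7.9a, HTSeq 0.11.2 and DESeq2 were used with GRCm39. No source used here gives the annotation release, the strand setting or what was done with multimapped reads, so antisense, overlapping and near-identical genes are uncertain. Reads outside genes, 11.6% to 12.5% per whole-cell library, were left out.

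GENCODE M21 (GRCm38) supplied names, types and exon-union lengths for 52135 of 55416 identifiers. The other 3281 held 0.399% of counts. No coordinates were taken from it.

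Genes passing filterByExpr (16221) were scaled with TMM. With edgeR 4.0.16 (R 4.3.3), 1 model of 4 groups took in the 12 libraries, and 3 contrasts were tested by the two-sided quasi-likelihood test with Benjamini-Hochberg adjustment: ER over cytosol in whole-cell RNA, the same in ribosome-bound RNA, and their difference. The SE is the size of the log2 ratio divided by the root of F, and intervals are 95% t intervals. CPM is TMM-scaled, and TPM was computed here from counts and lengths. The procedure was run on simulated counts with the same spread for all genes and no deviating library. That run does not cover gene-specific spread or a library such as cytosol replicate 2. The intervals cover counting error and replicate spread, but not amplification by PCR.

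The 34 gene lists (642 genes, 637 matched) and the comparison were chosen with earlier results of these data known. Named genes are Rpl31, 6 pluripotency factors, the highest and lowest tested member of each list by TPM, the 15 protein-coding genes of highest TPM and the 10 of highest coefficient of variation at 20 CPM or more. Any other gene is to be read as named after its values were seen. Most are marked so in place, but Hspa5, Sec61b, Ifit1 and Xist are among those that are not. One item that the rule names is not reported here. Alternatives covered scaling, filters, DESeq2 1.42.0, a replicate block, the 6 libraries alone, length definition and leaving out each library.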

Additional observations from a re-analysis of the deposited data

Results flagged for a closer look

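The ratio of ER over cytosol targeting differed between ribosome-bound and whole-cell RNA in a test of the difference itself (edgeR, adjusted p under 0.05) for 7033 of 16221 genes. Among the genes named for whole-cell RNA, the ribosome-bound log2 ratio exceeded the whole-cell one by 2.19 for Hsp90b1, 1.94 for Col4a1, 1.92 for Fn1, 1.66 for Scd2, 1.45 for Syvn1 and 0.75 for Hsd17b7. For Rpl31 the difference was 0.15 (SE 0.047, adjusted p 0.0073 by edgeR). It was not particular to the tagged gene. Of the 78 cytosolic ribosomal protein genes 59 had a ratio called larger in ribosome-bound RNA, beside 24.8% of all genes. The Rpl31 difference did not pass under 10 of 19 alternatives, at 0.08 to 0.11 with adjusted p from 0.0555 to 0.206 by edgeR. These were scaling by median ratios, no low-count filter, no mitochondrial genes, and leaving out cytosol whole-cell replicate 1 or 3, ER whole-cell replicate 3, cytosol ribosome-bound replicate 2 or any 1 of the 3 ER ribosome-bound replicates. For the other 6 genes the call held under every alternative run.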

How the results depend on the processing

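Over 21 alternatives the count of genes called in whole-cell RNA stayed at 0 with 2 exceptions. Without a filter on low counts edgeR called 7, all lower under ER targeting and highest in cytosol replicate 2, and leaving out single libraries gave 0 to 2. The 2 were Rpph1 and ENSMUSG00002076161, without cytosol replicate 3. Leaving out cytosol replicate 2 instead moved the log2 ratio of ENSMUSG00002076161 from -1.60 (SE 0.42) to -0.30 (SE 0.34). DESeq2 gave 342 genes with an unadjusted p under 0.05 against 634, and leaving out 1 library gave 531 to 802. Genes with an interval within 1.5-fold numbered 12114 to 12615 when 1 library was left out. Deviations of same-numbered libraries had correlations of 0.038, -0.161 and -0.089 across genes, and those of differently numbered ones ran from -0.13 to 0.21. These few values cannot decide whether same-numbered libraries share a culture or day. With a replicate block 0 genes were called, and 608 had an unadjusted p under 0.05. Of 94 named genes 48 took the other sign under some alternative. Using the longest transcript as length moved the TPM of 6 of 93 genes over 1.5 times. Genes under 1 CPM are limited by depth.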
